A study of Zea mays with 9 samples.

Results

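The genes described here are 32 of 38703 maize genes whose chromatin coverage was lower in every library taken after 6 h and after 12 h of tunicamycin than in every library at 0 h. They were chosen by the measured values themselves. Each library was first divided by its total and brought to the mean total of the 9 libraries. A gene was then a member if its mean over the 9 libraries lay from 730 to under 2000 and every 6 h and 12 h value lay below every 0 h value. Its 0 h mean also had to be at least 1.5 times the 6 h mean and at least 1.5 times the 12 h mean. Because these values picked the genes, the lowering itself is a description and no test of 6 h or 12 h against 0 h is given for them.

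The assay was ATAC-seq, where a transposase cuts and tags open DNA, on nuclei from flash-frozen roots of the maize line B73. The groups were 3 libraries at 0 h, 3 at 6 h and 3 at 12 h, which the series calls biological replicates, and all 9 carry tunicamycin as their agent, the 0 h libraries included. One label names protoplasts, while the source and extraction labels name root. Seedlings kept for 6 h or 12 h without the drug were not analysed here, and elapsed time and time under the drug cannot be told apart.

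Tunicamycin stops the first step of N-linked glycan assembly, so that glycoproteins misfold in the endoplasmic reticulum. Plant cells answer through the unfolded protein response, in which the membrane sensor IRE1 splices the messenger RNA of a bZIP transcription factor and other bZIP factors are released from the membrane by proteolysis. These factors raise genes for chaperones and for the degradation of misfolded proteins, and prolonged stress can end in cell death. Nucleosomes and bound proteins limit where the transposase can cut, so lower coverage at a gene is read as less open chromatin there.

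Whether any member belongs to that response was not tested. The RefSeq gene table used here shared 0 of the 38703 identifiers with the coverage table, so the members are given by their identifiers, without names, functions, positions or sequences. For the same reason the root label was not checked against marker genes.

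Values are coverage in read bases. Low values piled up on multiples of 73, so 73 is taken below as the coverage of 1 read, which was not compared with the true read length. Library totals ran from 28.9 to 39.1 megabases, and all 3 totals at 6 h (28.9, 31.1 and 33.1) lay below all others. In these units a member held a median of 20.6 reads per library at 0 h, 9.63 at 6 h and 11.9 at 12 h before scaling. The members are thus genes of middling coverage read from few fragments, which limits the precision of each value. Whether the lower totals at 6 h played a part in the choice of members was not tested.

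**Figure D1:**
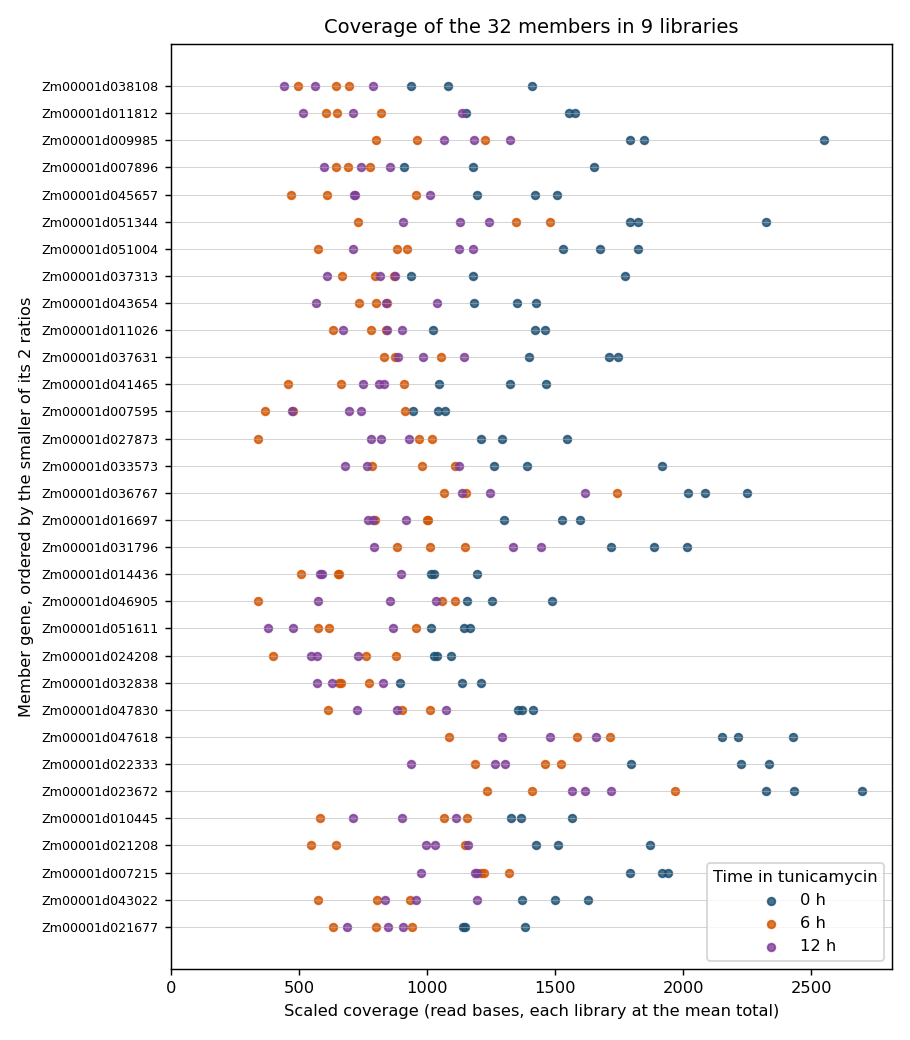
Scaled coverage of the 32 members (one row each, ordered by the smaller of the ratios 0 h over 6 h and 0 h over 12 h, largest at the top) in the 9 libraries, with one point per library coloured by time. The 0 h points lie to the right of all others in each row because the rule asked for it, while 6 h and 12 h points mix in all rows but that of Zm00001d007215.

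Summed over the 32 members, scaled coverage was 47674, 48593 and 49475 in the 0 h libraries, 30217, 28032 and 27163 at 6 h, and 30567, 29484 and 28604 at 12 h. The mean of 48581 ± 901 (SD, n = 3) at 0 h was 1.71 times that of 28471 ± 1574 (SD, n = 3) at 6 h and 1.64 times that of 29552 ± 983 (SD, n = 3) at 12 h. In all, the members held 0.139% of scaled coverage at 0 h, 0.0816% at 6 h and 0.0847% at 12 h. The ratio of 0 h to 6 h ran from 1.51 to 2.11 over the members, with a median of 1.67. That of 0 h to 12 h ran from 1.504 to 1.93, with a median of 1.61. Over all 19836 genes in the same range of means the medians were 1.00 and 1.01. Dividing each library by its total itself brings such medians near 1, so a change shared by most genes would not be seen.

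The ratios of single members are the values that chose them, so they are not estimates of the size of a lowering. None of the 32 reached a ratio of 2 at both times, though that of 0 h to 6 h alone ran up to 2.11. In 20 the smaller of the ratios was under 1.6. The member with the largest smaller ratio was Zm00001d038108. It had 938, 1409.6 and 1082 in the 0 h libraries, 695, 495 and 646 at 6 h, and 790.0, 563 and 442 at 12 h. Its means were 1143 ± 242, 612 ± 104 and 598 ± 177 (SD, n = 3 each), which makes 0 h 1.87 times 6 h and 1.91 times 12 h. The later times overlapped in this gene, and the nearest values of 0 h and the later times were 148 apart, the coverage of 2.02 reads.

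Zm00001d011812 came next, with 1151, 1578 and 1556 at 0 h, 820.5, 650.3 and 607 at 6 h, and 517, 713 and 1138 at 12 h. The 0 h mean was 2.06 times the 6 h mean and 1.81 times the 12 h mean. Its separation rested on little, since 12 h replicate 3 lay only 12.8 below 0 h replicate 1, which is 0.175 of a read. Zm00001d009985 was separated more widely, with 1847, 1793 and 2548 at 0 h, 1225, 960.2 and 802 at 6 h, and 1184, 1067 and 1323 at 12 h. The nearest values in that gene were 469 apart, or 6.43 reads, and its highest value was 0 h replicate 3.

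Zm00001d051004 can be read directly as whole reads, which makes it an exception. Each of its 9 deposited values was a multiple of 73, as in 24 of the 19836 genes in range and in no other member. Over the members 39 of 288 values (13.5%) were multiples, against 11.3% of values over all genes in range. Of the 32 members, 16 had none, as did 45.8% of all genes in range. The values of Zm00001d051004 are singled out for this after they were seen. Its values corresponded to 28, 21 and 25 reads at 0 h, 7, 12 and 10 at 6 h, and 17, 16 and 10 at 12 h. After scaling its means were 1675 ± 147, 793 ± 190.4 and 1004.5 ± 255 (SD, n = 3 each). The 0 h mean was 2.11 times the 6 h mean, the highest ratio at 6 h among the members, and 1.67 times the 12 h mean.

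Of the other 8 among the 12 members with the largest smaller ratio, all but Zm00001d051344 and Zm00001d037313 had a lower mean at 6 h than at 12 h. Zm00001d045657 had a mean of 1376 at 0 h, 679 at 6 h and 814 at 12 h, and Zm00001d041465 had 1279, 678 and 798. Zm00001d051344 had 1980.1 ± 298 at 0 h, 1187 ± 400.4 at 6 h and 1092 ± 171 at 12 h (SD, n = 3 each). At 6 h replicate 2 stood low in Zm00001d051344, with 730.4 against 1480.2 and 1349 in replicates 1 and 3. The ratios of 0 h to 6 h and to 12 h were 1.77 and 1.71 in Zm00001d007896, 1.66 and 1.69 in Zm00001d037313 and 1.66 and 1.62 in Zm00001d043654. They were 1.73 and 1.61 in Zm00001d011026 and 1.76 and 1.61 in Zm00001d037631. In Zm00001d037313 a single 0 h library was high, replicate 2 with 1771 against 1179 and 936, and the coefficient of variation of 33.2% at 0 h was the highest of the members.

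The best covered members at 0 h were Zm00001d023672, Zm00001d047618 and Zm00001d022333. Zm00001d023672 had 2430.4, 2698 and 2324 at 0 h, 1968, 1411 and 1233 at 6 h, and 1717, 1615 and 1565 at 12 h. Zm00001d047618 had 2214, 2429 and 2152 at 0 h, 1714, 1586 and 1085 at 6 h, and 1659.8, 1479 and 1292 at 12 h. In both genes 6 h replicate 3, the library of lowest total, was the lowest of all 9. Zm00001d022333 was lowest at 12 h instead, with 1266, 936 and 1305 there against 1462, 1187 and 1524 at 6 h and 1798, 2335 and 2224 at 0 h.

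The distance between the lowest 0 h value and the highest later value ran from 12.8 to 472 over the members, with a median of 179, or 2.46 reads. It was under 1 read in 7 members, from 1 to under 2 reads in 5 and 2 reads or more in 20. The widest was in Zm00001d007215, with 1793, 1942 and 1919 at 0 h and at most 1321 later. That gene entered only just inside the ratio, at 1.51 for 6 h.

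At the edge of the rule, the members just inside were Zm00001d007215, Zm00001d043022 and Zm00001d021677, with smaller ratios of 1.506, 1.504 and 1.504. Just outside lay Zm00001d040343, Zm00001d040339 and Zm00001d052842, at 1.497, 1.487 and 1.485. Zm00001d040343 held 1411, 1559 and 1578 at 0 h, 1045, 751 and 1021 at 6 h, and 962, 1003.5 and 1072 at 12 h, a pattern like that of members. The boundary therefore separates genes whose ratios differ in the second decimal.

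The members were steadier between 0 h libraries than other genes. Their coefficient of variation at 0 h had a median of 11.5%, against 19.4% over all genes in range. The SD at 0 h was below the SD that sampling of independent reads would give in 28 of the 32 members (87.5%) and in 69.1% of all genes in range. An SD from 3 libraries is imprecise, so these shares are not read as less scatter than read sampling gives. A rule that keeps every 0 h value above every later one favours genes with little scatter at 0 h, so neither difference was independent of the choice. At 6 h and 12 h the medians were 22.1% and 18.3%, against 21.7% and 19.9% over all genes in range. The 0 h library that was highest was replicate 1 in 8 members, replicate 2 in 12 and replicate 3 in 12. The lowest value fell in a 6 h library in 20 members, in 11 of them in replicate 3, and in a 12 h library in 12. Such counts of highest and lowest libraries were not taken over all genes, so nothing is read from them.

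No member had a row identical to that of another gene, as 0.426% of all genes did, or shared 5 or more of its 9 values with the gene next to it in the table, as 0.124% did. At such low shares the absence among 32 genes says nothing particular of them. Members never stood in successive rows of the table. No member was at 0 in any library.

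**Figure D2:**
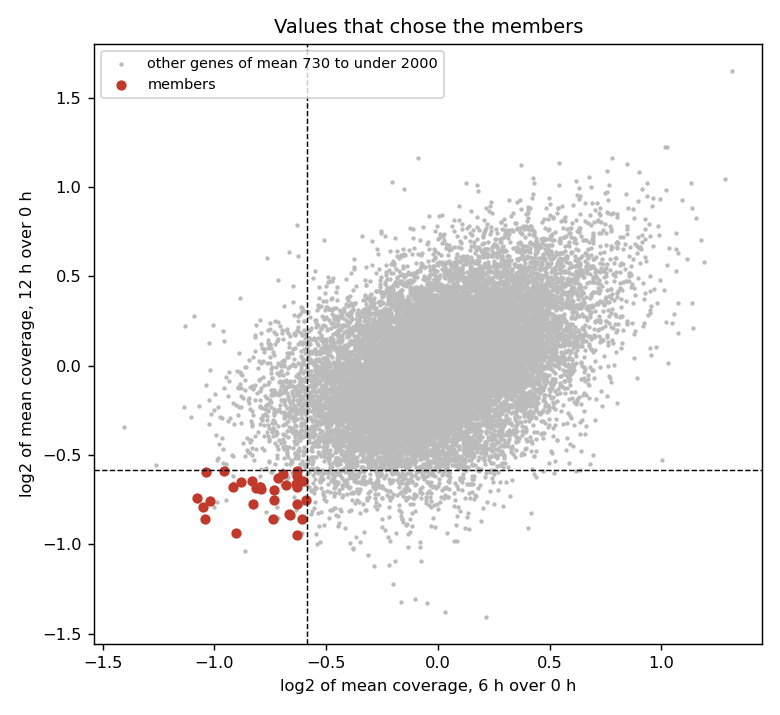
Log2 ratio of mean scaled coverage, 6 h over 0 h (horizontal) against 12 h over 0 h (vertical), for the 19836 genes of mean 730 to under 2000, with the 32 members in red and dashed lines at a ratio of 1.5. Both axes share the 0 h libraries, so the slant of the cloud is not read as agreement between times; the members lie at the edge of a continuous cloud.

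The members made up 0.161% of the 19836 genes in range. Every 6 h value lay below every 0 h value in 1136 genes, and every 12 h value in 1202. Both held in 266 genes, of which 131 reached a ratio of 1.5 at neither time, 59 at 6 h alone, 44 at 12 h alone and 32 at both. The opposite rule, with every later value above every 0 h value and the same ratio, found 76 genes. That rule was not counted with relabelled columns, so 76 against 32 is not read as an excess of raised genes.

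The choice of members also called for the count that the same rule gives when the columns are relabelled. There are 840 ways to put 3 columns in the place of 0 h and divide the other 6, and 839 of them differ from the labels. Those 839 found from 17 to 74 genes, with a median of 37. At least 32 genes were found by 652 of them (77.7%), and fewer by 187. With the columns labelled as deposited, the number of genes lowered at both times was thus below the middle of the relabelled counts.

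The counts moved with the libraries placed in the 0 h position. With none of the 6 h libraries there, the median over 199 assignments was 32 genes. It was 36 with 1 of them, 44 with 2 and 64.5 with all 3. When all 12 h libraries stood there the median was 62.5, from 55 to 68. The 9 other assignments that kept the 0 h libraries in place and only mixed 6 h with 12 h found 30 to 38 genes.

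**Figure D3:**
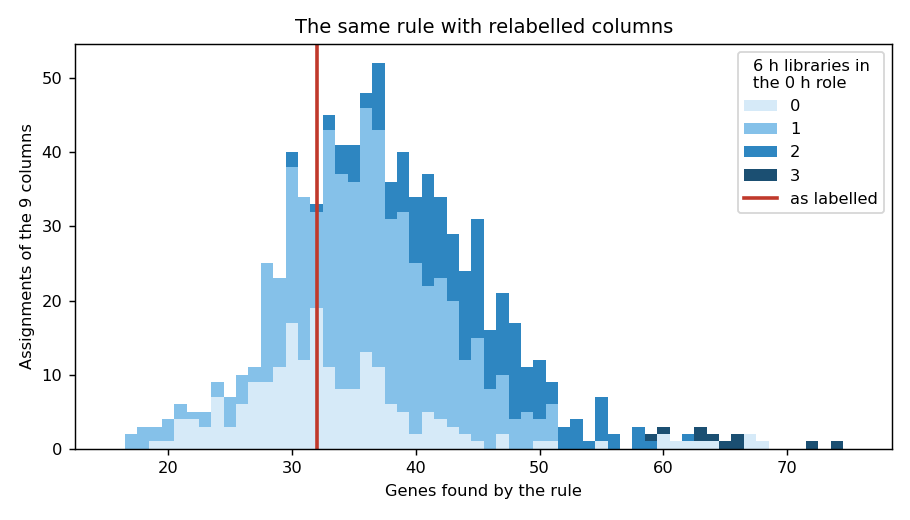
Number of genes found by the rule (horizontal) over the 839 relabelled assignments of the 9 columns, stacked by how many 6 h libraries took the place of 0 h, with a red line at the labelled count. The line at 32 lies to the left of the median of 37, and the assignments with all 6 h libraries in that place lie at 59 to 74.

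To see the lowering in libraries that had no part in choosing genes, the rule was applied to 2 replicates of each time and the chosen genes were read in the remaining replicate of each time. Leaving out the libraries numbered 1, 2 or 3 gave 174, 143 and 166 genes. In the libraries that chose them, summed coverage at 0 h was 1.74, 1.72 and 1.71 times that at 6 h and 1.70, 1.69 and 1.69 times that at 12 h. In the libraries left out, it was 1.04, 1.01 and 0.999 times that at 6 h and 1.02, 1.03 and 1.03 times that at 12 h. Over all genes of the same range, the left-out ratios were 1.000, 1.01 and 1.01 at 6 h and 1.01, 1.01 and 1.01 at 12 h. In these genes, most of them not members, the factor near 1.7 in the libraries used was therefore at most 1.04 in those not used. The 32 members were chosen on all 9 libraries, so the same reading cannot be made for them.

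Counted gene by gene, the left-out 0 h library was the highest of the 3 in 61 of 174, 54 of 143 and 56 of 166 genes, together 171 of 483 or 35.4%. Over all genes in range that share was 33.4%. Both left-out ratios reached 1.5 in 24 of the 483 (4.97%), against 3.58% over all genes in range. Members were 23, 19 and 20 of the genes chosen, and for those the left-out 0 h library was highest by the rule itself.

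**Figure D4:**
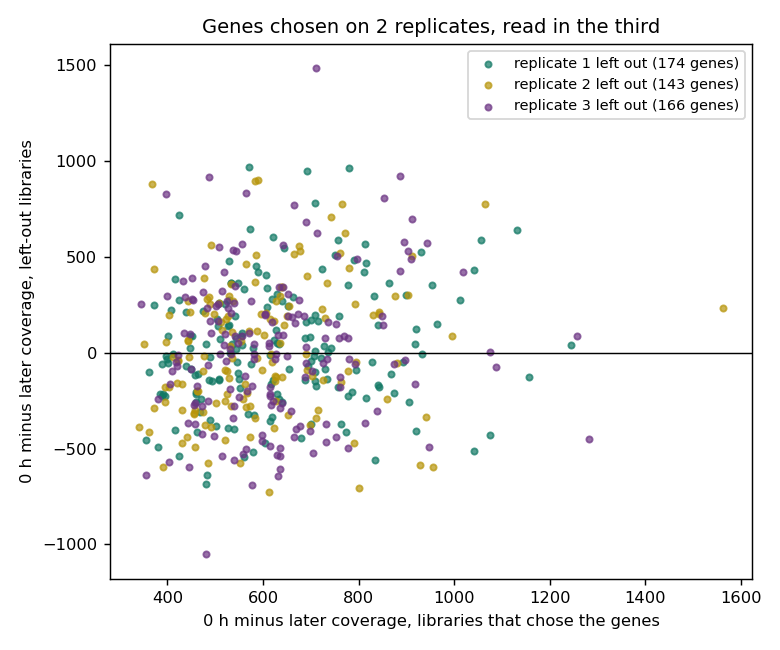
Scaled coverage at 0 h minus the mean of the later times for the 483 choices of genes, in the libraries that chose them (horizontal) and in the libraries left out (vertical), coloured by the replicate number left out. Each point is a gene under 1 left-out replicate, so a gene chosen more than once recurs. The points scatter on both sides of the zero line vertically while all lie above 0 horizontally.

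The rule did not compare 12 h with 6 h, but it held all values of both times under the same ceiling, the lowest 0 h value. That limits how far apart the later times can lie in a member, so their differences are given as a description. Changes from 6 h to 12 h were taken from limma on log2(scaled coverage + 1), fitted to all 38703 genes. Limma called 0 of all genes (0%) at a Benjamini-Hochberg adjusted p of 0.05, and 2452 (6.34%) fell under an unadjusted p of 0.05. With voom weights limma also called 0 genes, with 2243 at the unadjusted level. Of the 32 members, 0 passed either level, from which nothing is read because the rule used these values. The median log2 change was 0.08 over the members and 0.01 over all genes, and the median standard error of a member was 0.30.

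In 20 members the mean at 6 h was below that at 12 h, and in 12 the order was the opposite. By the limma change 21 were lower at 6 h, and 17 to 24 with 1 library left out. The share over all genes was not taken, so nothing is read from this order. The 6 h and 12 h values overlapped in 31 of the 32, while 11.6% of all genes in range had no overlap. The common ceiling favours overlap in members, so nothing is read from that difference. The member without overlap was Zm00001d007215, with 1224, 1209 and 1321 at 6 h and 1189, 1194 and 974 at 12 h.

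The highest changes from 6 h to 12 h were in Zm00001d021208, Zm00001d043022 and Zm00001d051004. Zm00001d021208 had 1149, 646 and 545 at 6 h and 1031, 1160.4 and 997 at 12 h, with a log2 change of 0.52 (SE 0.29). Its 6 h replicate 1 lay inside the 12 h values, and the other 2 lay below all 12 h values. Without that library its log2 change was 0.84. The log2 changes of Zm00001d043022 and Zm00001d051004 were 0.38 (SE 0.29) and 0.34 (SE 0.29).

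At the other end, Zm00001d051611 had 955, 573 and 619 at 6 h and 866, 478 and 380.04 at 12 h, with a log2 change of -0.37 (SE 0.36). In this gene replicate 1 was the highest library at both later times. Zm00001d022333 and Zm00001d033573 followed with log2 changes of -0.26 (SE 0.24) and -0.18 (SE 0.29). Each of the 6 changes was less than 2 standard errors from 0.

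**Figure D5:**
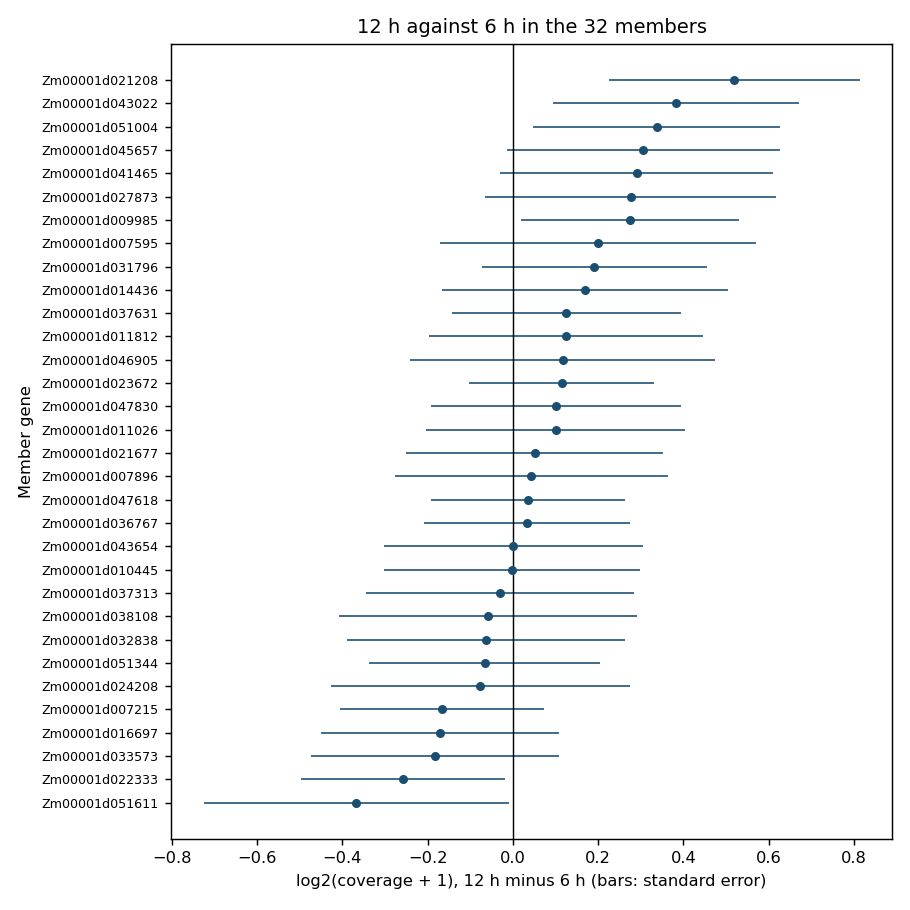
Log2 change in coverage from 6 h to 12 h for the 32 members, with bars of 1 standard error from limma. Values run from -0.37 to 0.52, a spread that the rule itself limits.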

How the data were processed

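The deposited table gives coverage signal as whole numbers, by gene identifier, in 9 libraries, and 0 of its columns lie outside the samples. Per the submitters' processing notes, cutadapt 1.11, Bowtie2 2.2.6, MACS2 and DESeq2 were used, with no role or order given. Build, counted window, read shift and duplicate removal are not given in the sources used; duplicates and wide windows would change the values. The value 73 occurred 5648 times against 45.6 for its neighbours, so values were treated as coverage and not as counts, and the planned count test was replaced by limma. Nothing says how separately replicates were grown or prepared, so the spread behind each p-value may be technical. Reads without molecular identifiers are not independent molecules.

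For the rule, columns were scaled to the mean total. For 12 h against 6 h, coverage was divided by trimmed-mean-of-M-values factors (30% and 5% trimmed), a pseudocount of 1 was added, and limma 3.58.1 (R 4.3.3; trended, robust) was fitted across all genes and 9 libraries, two-sided. Changes are therefore on a log2(value + 1) scale, where the added 1 is small beside the 73 taken as 1 read. They ran from -7.47 to 7.48 over all genes and from -1.65 to 1.65 over the genes in range. The widest changes thus lay in genes outside that range and are not read as large effects. A minimum group mean of 1 removed 0 genes. Both steps were run on simulated data, with read sampling as the only noise and planted changes larger than those of the members. Those runs do not show how well changes of the size reported here are found. The members, lists and tests were chosen with earlier results of these data known. Genes named are the 12 members with the largest smaller ratio, the 3 highest and 3 lowest changes from 6 h to 12 h, the 3 highest at 0 h, and 3 on each side of the ratio. Gene lists, protein classes, positions and promoter motifs were not run, since 0 identifiers matched the RefSeq table. Tables were handled with pandas 2.3.3 and numpy 2.4.6 in Python 3.11.15.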

Additional observations from a re-analysis of the deposited data

How the results depend on the processing

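The rule found 37 genes with trimmed-mean scaling, 35 with median-of-ratios scaling and 35 with no upper bound on the mean, all 32 members among them each time. It found 199 genes at a looser ratio minimum, 0 at a minimum of 2, 95 with means from 300, 16 with means from 1000 and 56 where values could overlap, as follows from looser or stricter conditions. With each library left out in turn, fewer libraries had to be apart, and the means behind the ratios also rested on fewer. How much each of these moved the count was not tested. These runs gave 41 to 111 genes. Of the 32 members, 22 to 28 were among the genes of each run, and the others no longer met a ratio or the range of means. Over 1.5 times the main count were 111, 82 and 87 without 0 h replicate 1, 2 and 3, 55 and 57 without 6 h replicate 2 and 3, and 50 without 12 h replicate 1. The share of left-out 0 h libraries that were highest was 36.0% at the looser ratio minimum, 36.2% with trimmed-mean scaling and 25% at a ratio of 2, the last from 8 genes. For 12 h against 6 h limma called 0 genes under every alternative run, the replicate block included (0, with 2495 at an unadjusted p under 0.05). Deviations of libraries with the same replicate number correlated at -0.014 to 0.014 and those with different numbers at -0.014 to 0.019, so the numbers were not taken as pairs. Of 96 alternative values of the 6 named changes from 6 h to 12 h, 36 equal the main value by construction, and the other 60 kept its direction. These 6 were picked as the extremes of the same values, which favours a kept direction, so nothing is read from it. Promoter alternatives and DESeq2 were not run. With about 10 reads per member at the later times, ratios near 1.5 rest on few reads.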
